A study of Mus musculus with 50 samples.

Results

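Plasma cells are the antibody-secreting end stage of the B lineage. They carry large amounts of immunoglobulin transcript, an expanded endoplasmic reticulum and a set of transcription factors that shut down the earlier B cell programme, and in the mouse many of them live in the bone marrow. The 10 genes described here, of 33924 in the tables, were Igkc, Igj, Ighm, Sdc1, Xbp1, Prdm1, Tnfrsf17, Irf4, Derl3 and Fkbp11. They were picked by name as plasma cell genes with high counts in LSK of Flt3 mice at 2 weeks, so every comparison of those LSK libraries with other groups is a description and carries no test. All p-values below, adjusted over all genes tested, measure the spread between libraries only.

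Igkc encodes the constant region of the kappa light chain, Ighm the constant region of the IgM heavy chain, and Igj (now Jchain) the J chain that joins IgM and IgA into polymers. Sdc1 encodes syndecan-1 (CD138), the surface proteoglycan used to sort plasma cells, and Tnfrsf17 encodes BCMA, a receptor for plasma cell survival factors. Prdm1 (Blimp-1), Irf4 and Xbp1 encode transcription factors of the plasma cell programme, and Xbp1 also drives the unfolded protein response in many other cell types. Derl3 and Fkbp11 encode proteins of the endoplasmic reticulum, a degradation factor and a prolyl isomerase.

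Gene counts were available for 50 mouse libraries in 16 groups. LSK are lineage-negative, Sca1-positive, Kit-positive marrow cells that hold the stem cells, and GMP are granulocyte-monocyte progenitors. The first table held LSK and GMP of Flt3-mutant mice at 2, 4, 6 and 8 weeks and of WT mice at 4 weeks, with 3 libraries per group. The second held LSK and GMP of mice with Npm1 and Flt3 mutations (4 libraries each) and with Dnmt3a and Flt3 mutations (3 each), and lineage-negative progenitors (Lin- HSPCs) of Npm1 Flt3 mice after 7 days of tamoxifen (TAM), which through Cre removes the mutant Flt3 allele, or of vehicle (3 each). Per the labels, Cre, Dre or Flp recombinase switched the mutations on. The promoter behind each recombinase, the exact alleles, the ages of the mice and whether WT mice carried a recombinase are not given in the sources used here, and mice were taken at a set time or when symptomatic, without a statement of which for the second table. WT mice were taken at 4 weeks only, and their sample codes have another prefix than those of all Flt3 mice, so genotype cannot be told apart from whatever that prefix marks.

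Totals ran from 306571 to 8249135 counts in the first table, apart from Flt3 8-week GMP replicate 2 with 1942 counts, the near-empty library, which is left out of the levels below, and from 15053592 to 128057407 in the second. Levels are CPM, counts scaled to the total of each library. Flt3 itself was higher in Flt3 GMP of 4 to 8 weeks than in WT GMP by 2.35 ± 0.19 on the log2 scale (SE, adjusted p = 1.12e-13) and lower after TAM by 1.68 ± 0.39 (adjusted p = 0.00126). Its CPM overlapped in the latter contrast, with 83.3 to 183 after TAM and 160 to 209 after vehicle. The median of all genes there depended on the scaling, as given below. In 2 libraries of Dnmt3a Flt3 mice, LSK replicate 1 and GMP replicate 2, the title and the last letter of the sample code name different cell types, and both were left out of the tests. Grouped by title, all 3 Dnmt3a Flt3 LSK libraries had 44.7 to 62.5 CPM of Ly6a (Sca1), and all 3 GMP libraries 2.21 to 4.19 CPM. The Ly6a levels of these 2 libraries thus followed their titles. By sort markers, Ly6a (Sca1) was at 205 to 380 CPM in 2-week LSK and 84.1 to 134 CPM in WT LSK, against 5.58 to 14.4 CPM in 2-week GMP and 1.97 to 4.98 CPM in WT GMP. Kit was at 31.1 to 52.0 CPM in 2-week LSK, against 215 to 283 CPM in WT LSK. Flt3 LSK of 4 to 8 weeks were also below WT LSK, at 53.4 to 117 CPM of Kit (median 72.9). The part of Kit in the results below was not tested. In bulk RNA, fewer cells of a type and less RNA per cell cannot be told apart.

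The start regions of 3 members are printed because their levels in 2-week LSK, which chose the genes, differed: Igj and Derl3 lay above WT LSK there and Fkbp11 did not. Each is 300 bases of RefSeq promoter sequence (GRCm38.p6), from 250 bases before the start to 50 after it, read 5′ to 3′ on the strand of the gene.
Derl3, chr10:75893148-75893447, plus strand: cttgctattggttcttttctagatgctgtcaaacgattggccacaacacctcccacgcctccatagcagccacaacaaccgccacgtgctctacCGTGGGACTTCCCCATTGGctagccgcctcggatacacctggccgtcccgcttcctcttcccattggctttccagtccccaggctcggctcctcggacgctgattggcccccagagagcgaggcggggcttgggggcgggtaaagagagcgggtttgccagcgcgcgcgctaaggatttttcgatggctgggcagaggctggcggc
Fkbp11, second start, chr15:98727578-98727877, minus strand: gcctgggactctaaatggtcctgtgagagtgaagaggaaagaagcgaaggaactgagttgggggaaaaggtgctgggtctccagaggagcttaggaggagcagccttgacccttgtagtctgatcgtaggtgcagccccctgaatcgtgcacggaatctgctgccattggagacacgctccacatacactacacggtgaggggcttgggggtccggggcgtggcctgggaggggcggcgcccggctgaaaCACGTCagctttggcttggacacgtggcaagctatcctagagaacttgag
Igj, chr5:88527848-88528147, minus strand: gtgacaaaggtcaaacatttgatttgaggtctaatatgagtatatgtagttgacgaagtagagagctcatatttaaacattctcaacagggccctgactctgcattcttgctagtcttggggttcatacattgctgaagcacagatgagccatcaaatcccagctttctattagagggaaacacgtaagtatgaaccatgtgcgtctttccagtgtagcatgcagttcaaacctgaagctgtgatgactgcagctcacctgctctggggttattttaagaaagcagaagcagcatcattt

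Capitals in Derl3 mark a match on the opposite strand to the endoplasmic reticulum stress element, which is CCAAT and CCACG with 9 bases between them, upstream of the start. It occurred in 0.119% of 32851 start regions, and among the 9 start regions of the 8 members with an entry only in that of Derl3. Capitals in Fkbp11 mark GACGTG, the core of the element bound by XBP1, on the opposite strand at the start itself, which 6.38% of start regions held. No member's start region held the octamer ATGCAAAT (1.74% of all), the composite element of ETS and IRF factors, GGAA and TGAAA with 1 base between them (0.731%), or the second stress element, ATTGG and CCACG with 1 base between them (0.0365%). Short matches were commoner: CCAAT, of which Derl3 had 5 copies, occurred in 4 of the 9 start regions and in 37.4% of all, and CACGT occurred in 3 of the 9 and in 19.6% of all. Both strands were searched, the stress element contains a CCAAT, and a match describes letters only.

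In LSK of Flt3 mice at 2 weeks, immunoglobulin transcripts took 6.95%, 3.31% and 9.69% of all counts in replicates 1 to 3, against 0.0258% to 0.0472% in the 9 Flt3 LSK libraries of 4 to 8 weeks and 0.0877% to 0.292% in WT LSK. Igkc alone stood at 46140, 18240 and 54918 CPM in 2-week LSK. It was at 412, 1244 and 553 CPM in WT LSK, and between 3.15 and 91.9 CPM (median 42.4) in Flt3 LSK of 4 to 8 weeks. The lowest 2-week library was thus above every other LSK library, and the mean of 39766 ± 19152 CPM (SD, n = 3) was 54.0 times the WT mean of 736 ± 445 CPM (n = 3). How many of all genes separate the groups in this way was not counted, here or below.

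Igj stood at 13495, 5444 and 15034 CPM in 2-week LSK, against 132, 282 and 211 CPM in WT LSK, a ratio of means of 54.4. Flt3 LSK of 4 to 8 weeks had 1.05 to 28.8 CPM of Igj (median 9.79). Ighm stood at 2246, 2262 and 6532 CPM in 2-week LSK, against 317, 1026 and 1277 CPM in WT LSK, a ratio of 4.21. For both genes the groups did not overlap, a trait whose share over all genes was not counted. The gap was far wider for Igj than for Ighm.

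**Figure D1:**
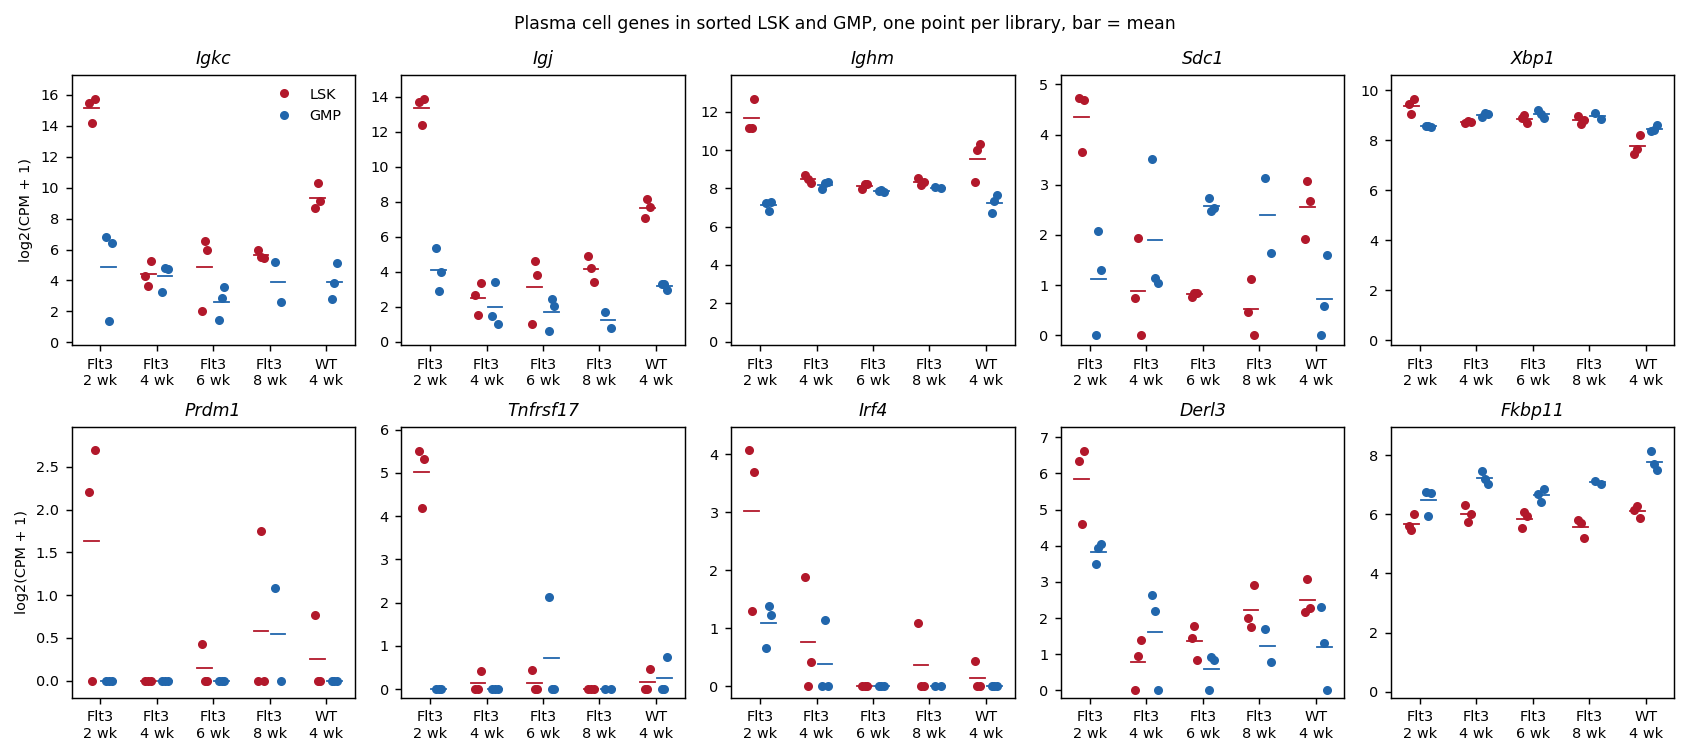
Level of each plasma cell gene, as log2(CPM + 1), in LSK (red) and GMP (blue) of Flt3 mice at 2, 4, 6 and 8 weeks and of WT mice at 4 weeks, 1 point per library with the mean as a bar and without the library of 1942 counts. Igkc, Igj, Ighm, Sdc1, Xbp1, Tnfrsf17 and Derl3 peak in 2-week LSK with no overlap with other LSK libraries, and Fkbp11 does not. The members were chosen for high values there, and the share of all genes without overlap was not counted.

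The surface genes were low in the other LSK libraries of the first table. Tnfrsf17 had 44.8, 17.3 and 39.3 CPM in 2-week LSK, from 104 counts in all, against 1 count in the 3 WT LSK libraries together and 2 counts in the 9 Flt3 LSK libraries of 4 to 8 weeks. Sdc1 had 25.4, 11.6 and 24.7 CPM in 2-week LSK, against 2.81, 7.42 and 5.38 CPM in WT LSK, a ratio of 3.95. Derl3 had 79.9, 23.1 and 97.9 CPM in 2-week LSK, against 3.51, 7.42 and 3.84 CPM in WT LSK, a ratio of 13.6. None of these 3 genes overlapped between the groups, and the share of all genes without overlap was not counted.

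The transcription factor genes and Fkbp11 did not all follow the immunoglobulin genes. Xbp1 had 701, 530 and 814 CPM in 2-week LSK, against 174.1, 203 and 295 CPM in WT LSK, and 406 to 511 CPM in Flt3 LSK of 4 to 8 weeks. Irf4 had 15.7, 1.45 and 11.9 CPM in 2-week LSK, against 0.351, 0 and 0 CPM in WT LSK, and replicate 2 lay below the highest 4 to 8-week library (2.67 CPM). Prdm1 rested on 9 counts in 2-week LSK, with 3.63, 0 and 5.49 CPM, against 2 counts in WT LSK. Fkbp11 was not high: it had 47.2, 43.4 and 63.1 CPM in 2-week LSK, against 70.5, 76.6 and 58.0 CPM in WT LSK. Replicate 2 was the lowest of the 3 libraries for 9 of the 10 genes.

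The members kept different proportions to each other. Per 100 Igkc counts there were 29.2, 29.8 and 27.4 Igj counts in 2-week LSK, against 22.7 to 38.1 in WT LSK, although the Igkc level differed 54.0-fold. For Ighm the same libraries had 4.87 to 12.4 counts per 100 of Igkc in 2-week LSK, against 77.0 to 231 in WT LSK. Lin- HSPCs had 26.1 to 40.4 Igj counts per 100 of Igkc after TAM and 35.0 to 38.5 after vehicle. LSK of Npm1 Flt3 and Dnmt3a Flt3 mice ranged from 23.1 to 177.

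**Figure D2:**
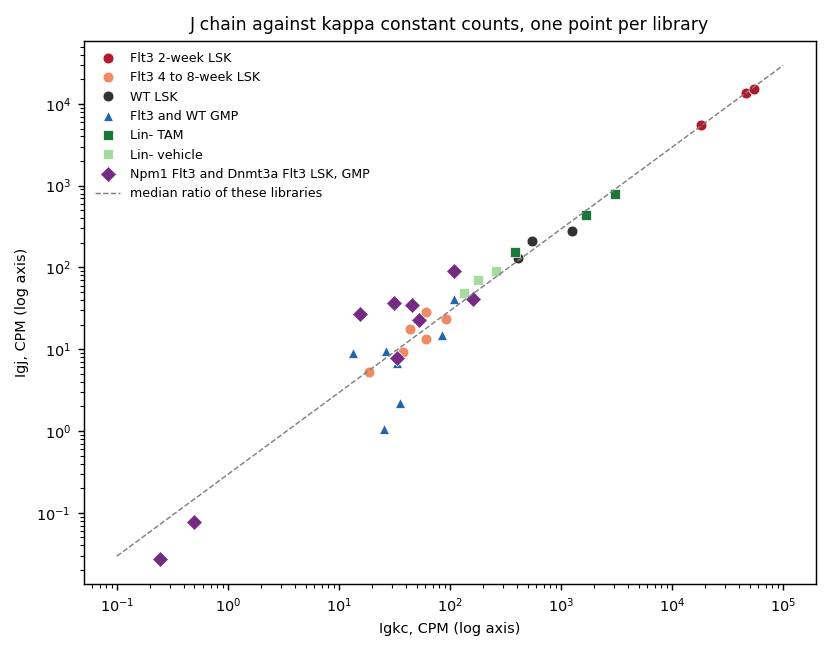
Igj against Igkc in CPM on log axes, 1 point per library with at least 20 Igkc counts (34 libraries), with a dashed line at their median ratio of 29.5 Igj counts per 100 Igkc counts. The 2-week LSK libraries lie along the line at the upper end, between 27.4 and 29.8 per 100, and several LSK libraries of the second table lie above it.

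As a description over the 15 LSK libraries of the first table, Pearson's r of log2(CPM + 1) with Igkc was 0.996 for Igj, 0.916 for Ighm, 0.914 for Derl3 and 0.901 for Sdc1. It was 0.249 for Xbp1 and -0.00586 for Fkbp11. Without the 2-week libraries (n = 12) r was 0.984 for Igj, 0.704 for Ighm, 0.654 for Sdc1, 0.626 for Derl3, 0.470 for Fkbp11 and -0.770 for Xbp1, so that the gap between Derl3 and Fkbp11 was mostly that of the 2-week libraries. These libraries share groups, and the 3 2-week libraries lie far above the others in Igkc.

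Among 9346 other genes, 6 of the 10 whose level was most like the mean of the 10 members over the same 15 libraries were again immunoglobulin genes. The first 10, with predicted and clone-named genes passed over, were Iglv1, Iglc2, Igkv1-110, Eaf2, Iglv2, Ighg1, Ighg, Pou2af1, Zfp36 and Tpst1, with r from 0.974 to 0.923. Mzb1, passed over under its clone name, was at rank 6 (r = 0.951). The 15 libraries include those of 2 weeks that chose the members, so genes high there rank high, and the ranking is no support. Fos (r = 0.907, rank 16) and Egr1 (r = 0.889, rank 22) ranked high as well. Iglc2, a lambda light chain constant region, had 4460 to 8831 CPM in 2-week LSK, against 10.9 to 104 CPM in WT LSK. Ighg1, the IgG1 heavy chain, had 77.3 to 1088 CPM in 2-week LSK and no counts in WT LSK. Pou2af1, a B cell coactivator of octamer factors, had 10.1 to 42.3 CPM in 2-week LSK, against 0.702 to 8.65 CPM in WT LSK.

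Counts fell on many kappa variable segments. Of 100 listed Igkv segments, 38, 37 and 52 had counts in the 3 2-week LSK libraries, and the most abundant took 24.2%, 14.5% and 16.1% of the Igkv counts. Igkv segments had 0.765 to 0.996 counts per 100 of Igkc there. In Lin- HSPCs they had 71.1 to 86.5 per 100 after TAM and 80.6 to 95.9 after vehicle. The tables differ in this ratio, the kit used for each library is not stated in the labels, and segment counts were therefore not compared between them.

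Marker lists of other cells were read in the same libraries. The 18 B lineage genes summed to 164.02 to 204 CPM in 2-week LSK, against 132 to 175 CPM in WT LSK, so that the ranges overlapped. The 8 plasmacytoid dendritic cell genes summed to 756 to 811 CPM in 2-week LSK, against 164.4 to 241 CPM in WT LSK, and all 8 had counts in every 2-week library. Siglech, a receptor of plasmacytoid dendritic cells, had 48.5 to 52.0 CPM in 2-week LSK. The 30 endoplasmic reticulum and secretory genes summed to 9346 to 10268 CPM in 2-week LSK, against 7666 to 8840 CPM in WT LSK. The 12 T and NK cell genes summed to 510 to 673 CPM in 2-week LSK, against 785 to 983 CPM in WT LSK, most of it Nkg7. Of them, the T cell receptor complex genes Cd3g (8.47 to 20.1 CPM in 2-week LSK, against 0 to 2.69 CPM in WT LSK) and Cd3d (4.84 to 24.7 CPM, against 0 to 2.30 CPM) and the receptor gene Trbc2 (8.47 to 24.7 CPM, against 1.05 to 4.94 CPM) were higher in every 2-week library. Other genes of the list did not follow. Cd247 (3.63 to 10.1 CPM, against 3.71 to 8.07 CPM), Trbc1 (6.05 to 14.6 CPM, against 2.81 to 7.68 CPM) and Trac (0 to 1.83 CPM, against 0 CPM) overlapped WT LSK. Nkg7 was lower, at 340 to 444 CPM against 719 to 872 CPM. Whether other cells in the sort have a part in these levels was not tested.

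**Figure D3:**
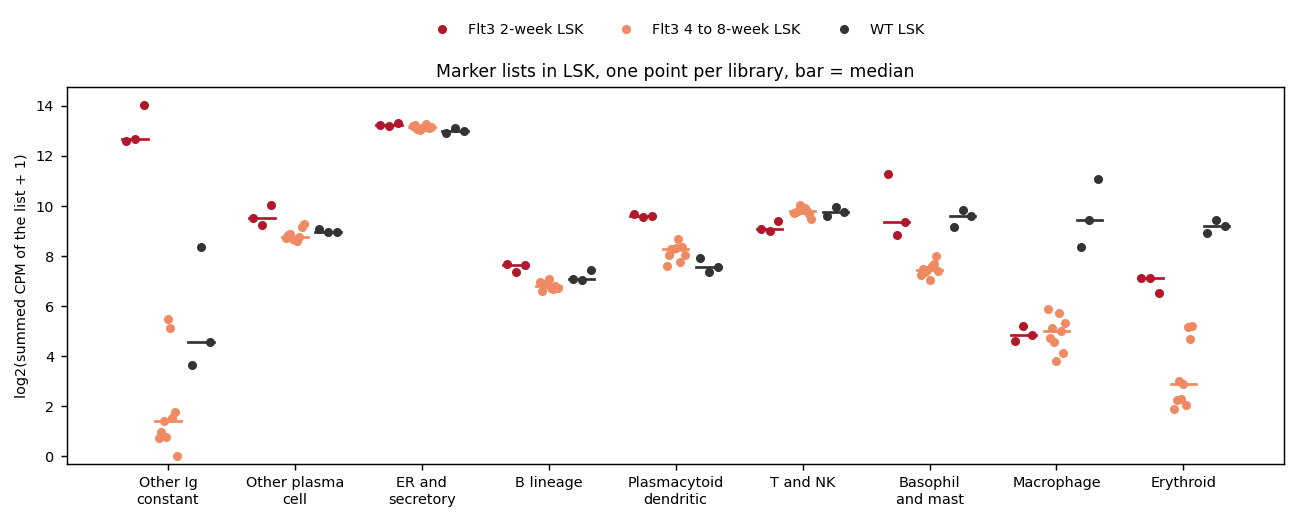
Summed level of 9 marker lists, as log2(summed CPM + 1), in Flt3 2-week LSK (red), Flt3 4 to 8-week LSK (orange) and WT LSK (black), 1 point per library with the median as a bar. The other immunoglobulin constant genes sit at 6139 to 16834 CPM in 2-week LSK, against 11.6 to 326 CPM in WT LSK, and the B lineage list differs far less.

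Contrasts without the 2-week LSK libraries were then tested. Those libraries stayed in the fit, where they take part in the filter on low counts and in the estimate of the spread. Flt3 LSK of 4, 6 and 8 weeks (9 libraries) were set against WT LSK (3 libraries), and 5 of the 8 members tested were called at an adjusted p under 0.05, where 14.1% of all genes tested were called, 6.16% higher and 7.92% lower. Sdc1, Tnfrsf17 and Derl3 passed the filter only through 2-week LSK, so this count is no support for them, and with those libraries out of the fit 4 of the 5 members that passed were called. The kappa and J chain genes fell. Igkc fell by 4.16 ± 0.62 on the log2 scale (adjusted p = 0.000882) and Igj by 4.10 ± 0.52 (adjusted p = 0.000276), with no overlap between groups for either. How many of all genes did not overlap there was not counted. Sdc1 had 0 to 2.81 CPM (median 0.701) in Flt3 LSK, against 2.81, 7.42 and 5.38 CPM in WT LSK, so that the ranges met at their edge. It fell by 2.64 ± 0.68 (adjusted p = 0.00768, and 0.0557 without WT LSK replicate 3). In a fit with neither the 2-week LSK libraries nor a filter it was at -2.63 (adjusted p = 0.0132).

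Ighm had 251 to 418 CPM (median 308) in Flt3 LSK of 4 to 8 weeks, against 317, 1026 and 1277 CPM in WT LSK, so that WT replicate 1 lay inside the Flt3 range. Its log2 fold change was -1.40 ± 0.41 (adjusted p = 0.0465), and the call was lost in 11 of the 12 fits that each left out 1 library (adjusted p up to 0.284) and with no filter on low counts (0.0622), while without the 2-week LSK libraries it held (0.0219). Xbp1 went the other way, with 406 to 511 CPM (median 444) in Flt3 LSK, against 174.1, 203 and 295 CPM in WT LSK, a rise of 1.04 ± 0.16 (adjusted p = 3.49e-05). The values for Derl3 were -1.23 ± 0.56 (adjusted p = 0.161) and for Fkbp11 -0.21 ± 0.19 (adjusted p = 0.549).

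Genes around the members in this contrast gave mixed counts. Of 30 secretory genes tested, 4 rose and 1 fell, with a median log2 fold change of 0.15 against 0.00 over all genes tested. Hspa5, the main chaperone of the endoplasmic reticulum, rose by 0.51 ± 0.13 (adjusted p = 0.00535). Of the 3 other immunoglobulin constant genes tested, Iglc2 fell by 5.06 ± 0.98 (adjusted p = 0.00532). Slamf7, a surface receptor of plasma cells, rose by 3.55 ± 0.87 (adjusted p = 0.0159). Markers of other cells moved as well: 7 of 8 macrophage genes fell, their sum being 12.9 to 58.8 CPM in Flt3 LSK against 331 to 2139 CPM in WT LSK, and all 6 erythroid genes found fell, their sum being 2.67 to 35.9 CPM in Flt3 LSK against 481 to 695 CPM in WT LSK. The part of such cells in the fall of Igkc and Igj was not tested.

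**Figure D4:**
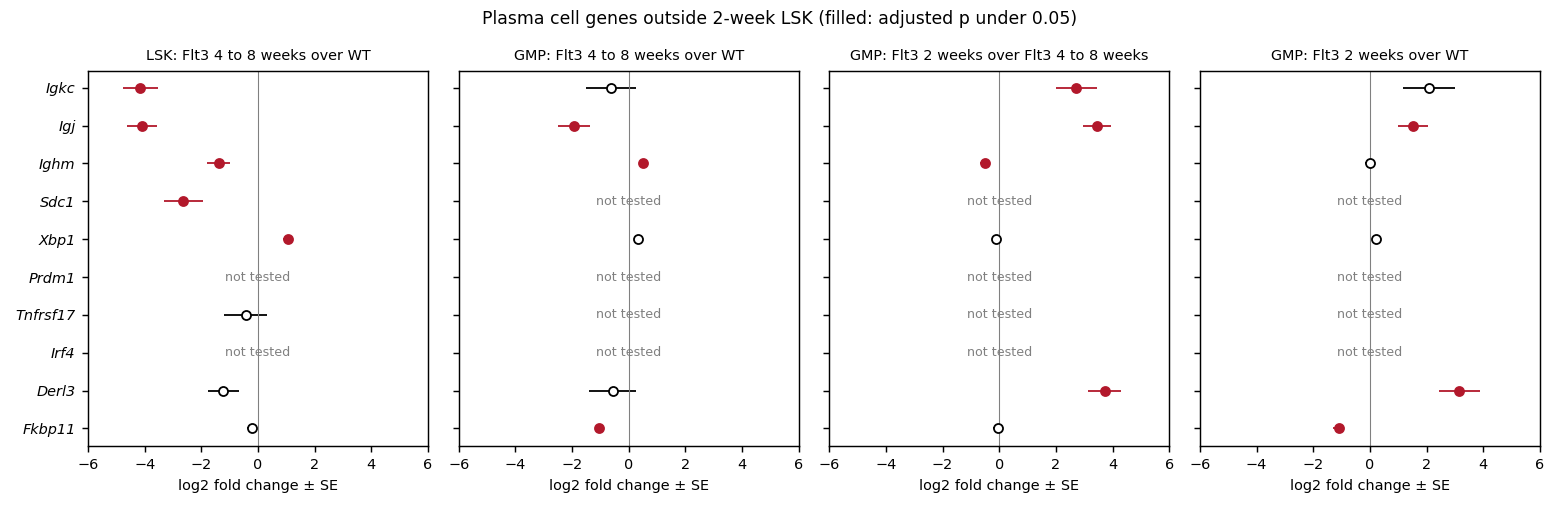
Log2 fold change ± SE of each member in contrasts that leave out 2-week LSK, with filled red points at an adjusted p under 0.05. In LSK Igkc, Igj, Ighm and Sdc1 lie left of 0 and Xbp1 right of it, and in 2-week GMP Igj and Derl3 lie right of 0 in both contrasts. Sdc1 and Derl3 in LSK, and Igj and Derl3 in GMP, passed the filter on low counts only through 2-week libraries.

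GMP gave another pattern. In Flt3 GMP of 4 to 8 weeks against WT GMP, 3 of 6 members tested were called, where 24.9% of all genes were, 11.9% higher and 13% lower. Igj and Derl3 passed the filter only through 2-week GMP. Igj had 0.568 to 9.63 CPM (median 1.99) in Flt3 GMP, against 8.87, 8.96 and 6.71 CPM in WT GMP, and fell by 1.92 ± 0.57 (adjusted p = 0.0101, and in DESeq2 0.218 with and 0.0182 without the near-empty library), and with neither the 2-week GMP libraries nor a filter it was at -1.91 (adjusted p = 0.0149). Fkbp11 had 85.2 to 176 CPM in Flt3 GMP, against 282, 206 and 180 CPM in WT GMP, and fell by 1.03 ± 0.15 (adjusted p = 1.09e-06). Ighm rose by 0.51 ± 0.15 (adjusted p = 0.0108, 0.19 without WT GMP replicate 1, and in DESeq2 0.0974 with and 0.00468 without the near-empty library). Of 30 secretory genes, 12 fell and none rose. Ssr4, a subunit of the translocon-associated complex, fell by 1.06 ± 0.15 (adjusted p = 2.04e-07). In the same contrast all 9 basophil and mast cell genes, 5 of 6 macrophage genes tested and all 4 erythroid genes tested fell, and their part in the fall of Igj and Fkbp11 was not tested.

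The Flt3 effect of 4 to 8 weeks was then compared between LSK and GMP, a contrast added after the data were seen, in which 4 of the 8 members tested were called, where 9.46% of all genes were, 5.06% higher and 4.39% lower. Ighm (-1.91 ± 0.49, adjusted p = 0.0162) and Sdc1 (-4.66 ± 1.13, adjusted p = 0.00548) moved lower in LSK relative to GMP. Sdc1 passed the filter only through 2-week LSK, and with neither those libraries nor a filter it was at -4.67 (adjusted p = 0.00431). Sdc1 rested on 10 counts in the 9 Flt3 LSK libraries and 28 in WT LSK. In GMP it rested on 39 counts in the 8 Flt3 libraries and 4 in WT. It was not tested in the fits of GMP alone. Xbp1 (0.71 ± 0.20, adjusted p = 0.0158) and Fkbp11 (0.83 ± 0.24, adjusted p = 0.0224) moved higher, and neither was called with median-ratio size factors (adjusted p = 0.0596 and 0.0598). Ighm was not called without WT GMP replicate 1 (adjusted p = 0.073) or WT LSK replicate 3 (0.0826). Xbp1 (adjusted p up to 0.104) and Fkbp11 (up to 0.168) were also lost without single WT libraries and in DESeq2 with the near-empty library (0.144 and 0.239), though not in DESeq2 without it (0.00531 and 0.0173). Igkc was at -3.51 ± 1.17 (adjusted p = 0.0649) and Igj at -2.16 ± 1.41 (adjusted p = 0.378), and with the animal as a block both were called, at -3.69 (adjusted p = 0.00702) and -2.35 (adjusted p = 0.0387).

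The 2-week GMP libraries came, per their sample codes, from the same animals as the LSK libraries that chose the genes. Igkc had 110, 1.60 and 84.5 CPM in them, the middle value from 1 count, against 1.70 to 35.6 CPM (median 9.93) in Flt3 GMP of 4 to 8 weeks and 5.91, 13.4 and 33.5 CPM in WT GMP. Against the later GMP, 4 of 6 members tested were called, where 24.4% of all genes were, 15.8% higher and 8.63% lower. Igj and Derl3 passed the filter only through 2-week GMP, where they were high, so the count is no support for them, and with no filter both were called (adjusted p = 3.7e-13 for Igj and 1.91e-09 for Derl3). Igj had 40.8, 6.41 and 15.0 CPM in 2-week GMP, against 0.568 to 9.63 CPM in later GMP. It rose by 3.45 ± 0.49 (adjusted p = 2.54e-07) and Derl3 by 3.73 ± 0.58 (adjusted p = 1.16e-06). Derl3 had 10.3, 14.4 and 15.5 CPM in 2-week GMP, against 0 to 5.24 CPM in later GMP, with no overlap, and the share of all genes without overlap was not counted. Igkc rose by 2.72 ± 0.73 (adjusted p = 0.0192), a call lost without 2-week GMP replicate 1 (adjusted p = 0.0996), without replicate 3 (0.0861) or in DESeq2 (0.109, but 0.0333 once the near-empty 8-week library was left out). Ighm fell by 0.51 ± 0.15 (adjusted p = 0.0103, 0.0547 without 2-week GMP replicate 2, and 0.232 in DESeq2 with and 0.00286 without the near-empty library). Of 30 secretory genes 13 rose and 1 fell in 2-week GMP against later GMP.

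Against WT GMP, 3 of 6 members were called in 2-week GMP, where 27.2% of all genes were, 16.2% higher and 11% lower. Here too Igj and Derl3 passed the filter only through 2-week GMP, so the count is no support for them. Derl3 rose by 3.16 ± 0.73 (adjusted p = 0.000736, and 0.000181 with no filter) and Fkbp11 fell by 1.09 ± 0.19 (adjusted p = 1.61e-05). Igj rose by 1.53 ± 0.54 (adjusted p = 0.0292, and 0.0141 with no filter), but its value without 2-week GMP replicate 1 was 0.68 (adjusted p = 0.487), and the call was also lost without any 1 of the 3 WT GMP libraries (adjusted p from 0.0537 to 0.101) and in DESeq2 (0.262 with and 0.0904 without the near-empty library). Other markers stood out more: the 9 basophil and mast cell genes summed to 57941 to 71304 CPM in 2-week GMP, against 1351 to 1657 CPM in WT GMP. In 2-week LSK the same sum was 463 to 2517 CPM. The part of basophil or mast cell RNA in the GMP values was not tested.

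Within WT mice, LSK were compared with GMP. Of 8 members tested 5 were called, where 29.6% of all genes were, 16.1% higher and 13.5% lower. Sdc1 and Tnfrsf17 entered only through 2-week LSK, and neither was called. Igkc was at 412, 1244 and 553 CPM in LSK, against 5.91, 13.4 and 33.5 CPM in GMP, and was higher in LSK by 4.98 ± 0.91 (adjusted p = 0.000302). Igj was higher by 4.30 ± 0.67 (adjusted p = 5.15e-05) and Ighm by 2.14 ± 0.43 (adjusted p = 0.000655). Xbp1 was lower in LSK by 1.00 ± 0.17 (adjusted p = 9.25e-06) and Fkbp11 by 2.06 ± 0.21 (adjusted p = 7.45e-11). Of 30 secretory genes 21 were lower in LSK and 1 higher, led by Manf (-1.85 ± 0.16) and Sdf2l1 (-2.11 ± 0.19), both stress-inducible genes of the endoplasmic reticulum. The median of all genes was 0.12 in this contrast, and 0.35 with median-ratio size factors, under which the same 5 members were called with the same signs. Of 8 macrophage genes 7 were higher in WT LSK than in WT GMP, and their part was not tested.

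In Flt3 mice of 4 to 8 weeks Igkc and Igj did not pass the test between the sorts. Igkc had 3.15 to 91.9 CPM (median 42.4) in LSK and 1.70 to 35.6 CPM (median 9.93) in GMP, a log2 fold change of 1.48 ± 0.68 (adjusted p = 0.171). Igj was at 2.14 ± 0.79 (adjusted p = 0.0742), and at 2.03 (adjusted p = 0.000614) with the animal as a block, since LSK and GMP came from the same animals. Without the 2-week LSK libraries Igj passed the test (adjusted p = 0.0384), and not with the filter left out as well (0.0625). Of 8 members 3 were called, where 15.3% of all genes were, 7.91% higher and 7.34% lower. Fkbp11 was lower in LSK by 1.23 ± 0.13 (adjusted p = 2.2e-10) and Sdc1 by 2.62 ± 0.64 (adjusted p = 0.00203, and 0.0613 without 4-week GMP replicate 1). It too passed the filter only through 2-week LSK, and with neither those libraries nor a filter it was at -2.59 (adjusted p = 0.00173). Xbp1 was lower by 0.30 ± 0.10 (adjusted p = 0.034), and with the animal block at -0.27 (adjusted p = 0.0632). With neither the 2-week LSK libraries nor a filter its adjusted p was 0.0528.

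In the second table, Npm1 Flt3 LSK were set against Dnmt3a Flt3 LSK (4 and 2 libraries), and 2 of 10 members were called, where 11.6% of all genes were, 7.8% higher and 3.76% lower. Irf4 had 12.2, 7.66, 7.09 and 5.37 CPM in Npm1 Flt3 LSK, against 0.498 and 0.427 CPM in the 2 Dnmt3a Flt3 LSK libraries, a rise of 4.13 ± 0.69 (adjusted p = 0.00589). Ighm had 650, 876, 1398 and 720 CPM in Npm1 Flt3 LSK, against 369 and 165 CPM in Dnmt3a Flt3 LSK, a rise of 1.84 ± 0.46 (adjusted p = 0.0292). With 1 Dnmt3a library left out, Irf4 was no longer called (adjusted p = 0.0633 and 0.0753) and Ighm was not called without replicate 3 (0.213). Igkc had 15.4 to 161 CPM in Npm1 Flt3 LSK, against 53.0 and 33.6 CPM in Dnmt3a Flt3 LSK. In the same contrast 10 of 18 B lineage genes and 7 of 8 plasmacytoid dendritic cell genes rose, and their part in the rise of Irf4 and Ighm was not tested.

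In GMP of the same mice 2 of 9 members were called, where 20.8% of all genes were, 12.5% higher and 8.22% lower. Ighm had 607, 552, 388 and 487 CPM in Npm1 Flt3 GMP, against 57.2 and 52.2 CPM in Dnmt3a Flt3 GMP, a rise of 3.18 ± 0.24 (adjusted p = 0.000389). Igkc was at 0.0202 to 0.500 CPM in Npm1 Flt3 GMP and at 0 and 0.246 CPM in Dnmt3a Flt3 GMP, so that Ighm was read there almost without kappa counts. Lambda constant counts were 4277 in Npm1 Flt3 GMP replicate 4 (36.6 CPM, all Iglc2) and 0, 6 and 0 in replicates 1 to 3. Sdc1 rose by 4.29 ± 1.20 (adjusted p = 0.0417), a call lost without any of 4 libraries (adjusted p from 0.0758 to 0.244). Of 30 secretory genes 3 rose and 10 fell, and 6 of 8 late neutrophil genes rose in the same contrast, whose part was not tested.

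The last contrast asked how the genes stood once the mutant Flt3 allele was deleted. In Lin- HSPCs of Npm1 Flt3 mice, 3 of 10 members were called after TAM, where 31.4% of all genes were, 10.1% higher and 21.3% lower. Fkbp11 fell to 6.71, 3.70 and 4.33 CPM after TAM, against 40.8, 36.1 and 47.5 CPM after vehicle, a log2 fold change of -4.31 ± 0.41 (adjusted p = 7.8e-09). Xbp1 fell by 1.98 ± 0.43 (adjusted p = 0.000791), and its CPM overlapped, with 40.7 to 55.1 after TAM and 46.3 to 112 after vehicle. Prdm1 rose to 26.5, 18.1 and 28.1 CPM after TAM, against 5.06, 2.44 and 2.84 CPM after vehicle, by 1.67 ± 0.46 (adjusted p = 0.00559, and 0.0594 without vehicle replicate 3).

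**Figure D5:**
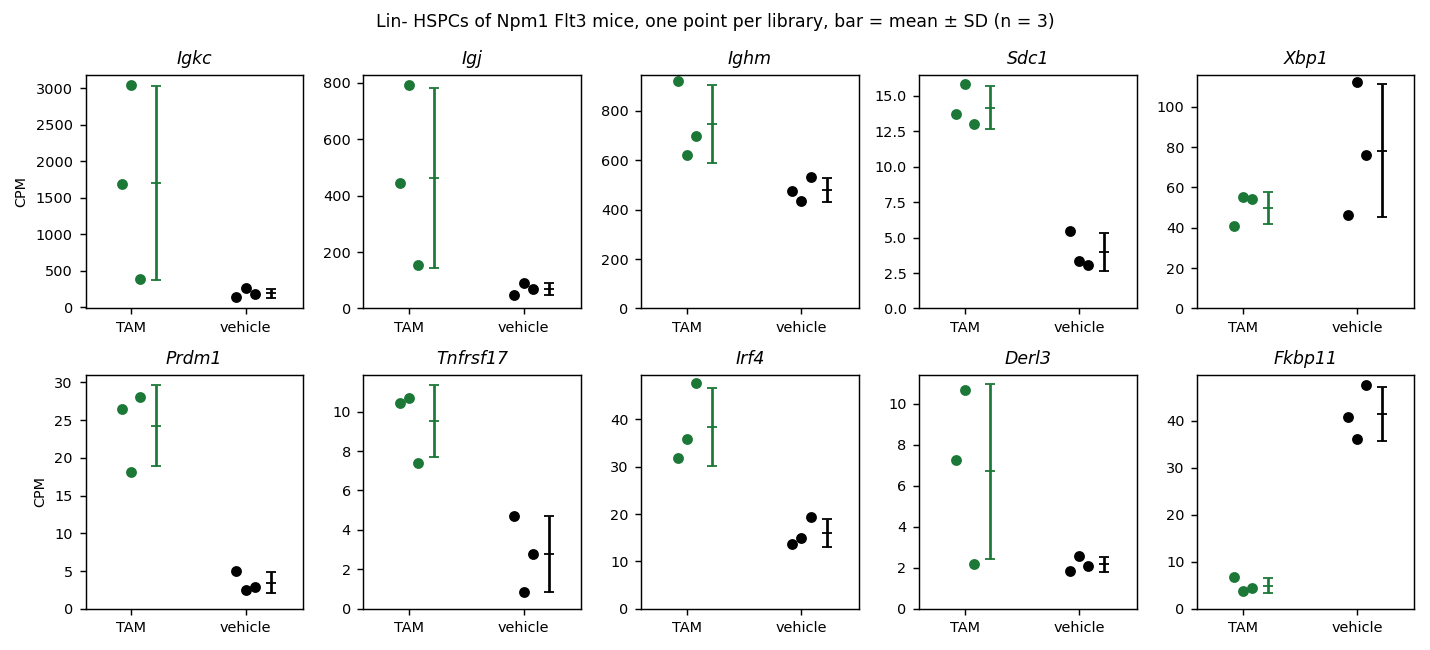
CPM of each member in Lin- HSPCs after TAM (green) and vehicle (black), 1 point per library with mean ± SD beside it (n = 3 each). TAM libraries lie above vehicle libraries for Igkc, Igj, Ighm, Sdc1, Prdm1, Tnfrsf17 and Irf4, and below them for Fkbp11. With library size alone the median log2 fold change of all genes was 1.64, so a higher CPM after TAM is not particular to the members. The share of all genes without overlap was not counted. With TMM scaling Ighm was at -0.59, and Irf4 was at -0.34 with median-ratio size factors.

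The CPM of the light chain and J chain genes were also higher after TAM. Igkc had 1690, 3041 and 383 CPM after TAM, against 135, 258 and 180 CPM after vehicle, and Igj 444, 792 and 155 CPM after TAM, against 49.2, 90.3 and 69.3 CPM after vehicle. The groups did not overlap, yet neither was called, at 1.90 ± 0.84 (adjusted p = 0.123) and 1.49 ± 0.58 (adjusted p = 0.0675), and without TAM replicate 3 both were (adjusted p = 0.000491 and 0.00164). The scaling matters here. The median of all genes was 0.56 with TMM, 0.30 with median-ratio size factors and 1.64 with library size alone. With library size alone 7 members were called, 6 higher and 1 lower. Of the 25269 genes tested 11399 were called in that fit, 9294 higher and 2105 lower. Ighm was then at 0.64 in place of -0.59, and Xbp1 was not called (adjusted p = 0.0824). Relative to the TMM median, Igkc was at 1.34, Igj at 0.92, Prdm1 at 1.11, Xbp1 at -2.54 and Fkbp11 at -4.87.

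Gene groups around the members also moved after TAM. Of 30 secretory genes 24 fell, among them the disulfide isomerase genes Pdia6 (-2.88 ± 0.38) and Pdia4 (-2.52 ± 0.39). Of 16 other plasma cell genes 7 rose and 3 fell, and the lymphoid factor gene Ikzf3 rose by 2.99 ± 0.39 (adjusted p = 1.2e-06). Of 18 B lineage genes 10 rose and 1 fell, 6 of 8 macrophage genes rose, 7 of 8 late neutrophil genes rose and all 6 erythroid genes found rose. The erythroid genes summed to 606 to 792 CPM after TAM, against 1.65 to 14.7 CPM after vehicle. Of 12 T and NK cell genes 6 rose, and they summed to 1103 to 1631 CPM after TAM, against 247 to 392 CPM after vehicle. The part of such cells in the members' values was not tested.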

How the data were processed

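The deposited values were raw counts per gene symbol, not normalised by the authors, in a table of 30 libraries (Flt3 and WT) and a table of 20. The submitters' processing notes name the build mm10 and the tools STAR and featureCounts. Versions, annotation and strand setting are not given in the sources used here. Reads of near-identical immunoglobulin genes may be split between them by the counting. Per the labels' protocols, a paired-end kit and a single-end 3′ kit were used, without a statement of which library had which. The 2 tables were therefore never tested against each other.

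Genes were tested in R 4.3.3 with edgeR 4.0.16: filterByExpr on the groups of the fit, TMM scaling, the robust quasi-likelihood F test, and Benjamini-Hochberg adjustment over all genes tested with a threshold of 0.05. The SE is the log2 fold change divided by the square root of F. LSK and GMP of the first table were fitted apart (15 libraries each), and together where LSK were set against GMP. In the second table each pair of groups had its own fit. The comparison of the Flt3 effects in LSK and GMP was added after the data were seen. The near-empty library stayed in the edgeR fits and out of levels and figures. Fits were tested on simulated data with known changes.

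Alternatives were DESeq2 1.42.0 and median-ratio size factors, no filter or a filter of 5 CPM, each library left out, and a replicate or animal block. Fits without the near-empty library, fits without the 2-week LSK (or GMP) libraries with and without the filter, and library size alone for TAM against vehicle, were added after the data were seen. LSK and GMP libraries that share a sample code came from 1 animal, and the deviations of such pairs from their group means had r from -0.0979 to 0.277 in the first table (14 pairs) and from -0.0453 to 0.385 in the second (4 pairs).

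The members and gene lists were chosen with earlier results of these data known. Of 145 listed genes 138 were found, 3 of them under a synonym. Besides the members and Flt3, genes named from a list have its smallest p-values in the comparison (up to 4, or up to 2 in LSK against GMP and in the second table) or are its most abundant markers. Cd3g, Cd3d and Trbc2 were named outside this rule, for lying higher in every 2-week LSK library than in WT LSK, and other T and NK cell genes were set beside them. Fos (rank 16) and Egr1 (rank 22) were also named by choice, while other genes near those ranks were not. Genes most like the members had at least 10 CPM in 3 LSK libraries. Start regions are from RefSeq and matched 8 of the 10 members.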

Additional observations from a re-analysis of the deposited data

Results flagged for a closer look

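In 4 of 20 checks of a member in a second-table group of 4 Npm1 Flt3 libraries, 1 library stood apart from the other 3 by a gap that Dixon's test at 95% calls an outlier. Chance gives this in about 1 in 20 groups only where values are independent and normally distributed. Here the other 3 libraries lay at or near 0 CPM for each flag, and the flags for Igj and Prdm1 came from the same library. The count of flags therefore cannot be set against that rate, and no excess over chance is read from it. In Npm1 Flt3 GMP the highest library had 0.500 CPM of Igkc, against 0.0202 to 0.0582 CPM in the others. The highest library for Igj there had 6.82 CPM, against 0 to 0.320 CPM in the others. For Prdm1 the highest, the same library as for Igj, had 1.43 CPM, against 0 to 0.121 CPM in the others. That library, replicate 4, also had 36.6 CPM of Iglc2. In Npm1 Flt3 LSK the highest library for Tnfrsf17 had 0.375 CPM, against 0 to 0.0581 CPM in the others.

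The Flt3 effect of 4 to 8 weeks was called different between LSK and GMP for 4 of the 8 members tested. In this contrast, added after the data were seen, 9.46% of all genes were called, 5.06% higher and 4.39% lower. For Ighm (difference of log2 fold changes -1.91) and Sdc1 (-4.66) the Flt3 libraries lay below the WT mean in LSK and above it in GMP. For Xbp1 the difference was 0.71 and for Fkbp11 it was 0.83. Neither of these 2 was called with median-ratio size factors or in DESeq2 with the near-empty library, though both were in DESeq2 without it. With 1 library left out, the call was lost in 2 of 23 fits for Ighm, 3 for Xbp1 and 2 for Fkbp11. Sdc1 passed the filter on low counts only through 2-week LSK, and it rested on 4 counts in WT GMP. All 4 rest on 3 WT libraries in each sort, and the causes were not tested.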

How the results depend on the processing

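Depth limits the low genes most: Tnfrsf17, Prdm1 and Irf4 rested on a few counts outside 2-week LSK in the first table, so their folds there were not detectable, and changes of sign in Tnfrsf17 concern such counts. Sdc1 was low there too, with 4 counts in WT GMP and 10 in Flt3 LSK of 4 to 8 weeks. The causes of the changes below were not tested, apart from the smaller number of libraries or genes that an alternative leaves. Where a group of 2 Dnmt3a Flt3 libraries lost 1, the other was assumed to vary like the Npm1 Flt3 libraries. The mean levels in 2-week LSK moved by less than 1 SD with TMM scaling.

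With DESeq2 fewer genes were called in 2-week GMP against later GMP (987 in place of 2224, with 2 members), in 2-week GMP against WT GMP (1026 in place of 2480), in later Flt3 GMP against WT GMP (798 in place of 2271, with 1 member) and for the difference of Flt3 effects (430 in place of 973). For that difference 2 members were called with median-ratio size factors. In DESeq2 without the near-empty library the first 3 counts were 2222, 2510 and 2184, and 1171 for the difference.

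For Npm1 Flt3 LSK against Dnmt3a Flt3 LSK 2251 genes became 4634 with DESeq2, 3496 with the filter of 5 CPM, 3465 with a block on the title number and 3597 with the conflicting library kept, and 4 members were called with DESeq2 and 4 with no filter. In GMP 3571 genes became 2127 with the block and 5403 with the conflicting library, and 1 member was called with the filter of 5 CPM and 1 with the block. After TAM, 5 members were called with no filter, 6 with the filter of 5 CPM, 5 with the block and 7 with library size alone. With library size alone 11399 of 25269 genes tested were called.

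Of 23 member values without the 2-week LSK libraries, 22 kept their direction and their side of the threshold, and of 32 also without the filter 31 did, the exceptions being Igj and Xbp1 in Flt3 LSK against Flt3 GMP. Without the 2-week GMP libraries all 4 did, and all 6 also without the filter.

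Reversed signs, none of them of a gene called as reported, were these log2 fold changes. Ighm in 2-week GMP against WT GMP was 0.13 with DESeq2, 0.13 with median-ratio size factors and 0.010 with the title-number block. Tnfrsf17 in Flt3 LSK against WT LSK was 0.13 with DESeq2, and its difference of Flt3 effects was -1.73 with DESeq2 and -0.17 in DESeq2 without the near-empty library. In Npm1 Flt3 LSK against Dnmt3a Flt3 LSK the block gave -0.62 for Igkc and 0.95 for Derl3, the conflicting library -0.19 for Igj and -0.37 for Xbp1, and no filter 0.11 for Derl3. In GMP the conflicting library gave -0.17 for Xbp1 and the block -0.81 for Prdm1. After TAM, library size alone gave 0.64 for Ighm, DESeq2 and median-ratio size factors -0.34 for Irf4, DESeq2 -0.012 and median-ratio size factors -0.013 for Derl3, and no filter -0.026 for Irf4.

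With 1 library left out, counts of genes called ran from 896 (without WT LSK replicate 3) to 1479 in Flt3 LSK against WT LSK, from 494 (without WT GMP replicate 1) to 1071 for the difference of Flt3 effects, from 433 (without Dnmt3a Flt3 LSK replicate 3) to 2554 in LSK of the second table, from 992 (without Dnmt3a Flt3 GMP replicate 3) to 3523 in its GMP, and from 5142 (without TAM replicate 1) to 9876 after TAM. Members called ran from 3 to 5, 2 to 5, 0 to 3, 1 to 2 and 3 to 5 in the same order. Log2 fold changes ran from -0.19 to 0.20 for Ighm and from -0.15 to 0.068 for Fkbp11 in 2-week GMP, against WT GMP and later GMP. They ran from -1.21 to 0.17 for Igkc and -1.16 to 0.32 for Derl3 in later Flt3 GMP against WT GMP. Tnfrsf17 ran from -1.04 to 1.104 in Flt3 LSK against WT LSK, -2.04 to 1.501 and -0.86 to 1.07 in LSK against GMP of WT and Flt3 mice, and -1.81 to 1.72 in the difference of Flt3 effects. In the second table Igkc ran from -0.48 to 1.13 and Derl3 from -1.23 to 1.06 in LSK, Igkc from -0.70 to 6.95, Xbp1 from -0.24 to 0.49 and Prdm1 from -1.09 to 2.19 in GMP, and Irf4 from -0.22 to 0.34 and Derl3 from -0.17 to 0.99 after TAM.

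The title numbers of TAM and vehicle libraries shared no more than a number (deviations correlated at -0.0541 to 0.0959 over 3 pairs). With a block on that number Ighm in Flt3 LSK against WT LSK had an adjusted p of 0.0877. The animal block changed 4 of 24 member values across the threshold, all named in the report, and no other. With median-ratio size factors the higher share among the genes called moved from 59.7% to 74.6% in 2-week GMP against WT GMP, from 47.6% to 65.1% in later Flt3 GMP against WT GMP, from 54.4% to 75.8% and 51.9% to 65.7% in LSK against GMP of WT and Flt3 mice, and from 53.5% to 27.9% for the difference of Flt3 effects. The median gene moved from 0.03 to 0.16, 0.04 to 0.17, 0.12 to 0.35, 0.02 to 0.10 and -0.08 to -0.23 in the same order. With DESeq2 the share moved from 64.6% to 79.4% in 2-week GMP against later GMP, and with library size alone from 32.1% to 81.5% after TAM.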
